A study of Mus musculus with 2 samples.

Results

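Klf2, Klf3, Klf4, Klf5, Klf6, Klf10 and Klf13 are members of the Krüppel-like factor (KLF) family of transcription factors. They were chosen by symbol as rows of a Drop-seq count matrix of mouse colon crypt cells, and are 7 of its 19294 genes. Each is described across the authors' 3 epithelial subclusters (stem cells, secretory precursors and absorptive precursors) and 4 clusters of all cells, which are natural intraepithelial lymphocytes (nIELs), induced intraepithelial lymphocytes (iIELs), B cells and epithelial Pigr+ cells.

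Drop-seq catches single cells in droplets with barcoded beads, and each unique molecular identifier (UMI) counts 1 captured transcript. The cells came from colon crypts of C57BL/6 mice aged 4 to 10 months, of genotype Tcf4 GfpCre/+ with the reporter RosamTmG/+, with no pretreatment. The label of both pools, samples 1 to 3 and samples 4 to 6, names sorted cells without a Tcf4 lineage mark (Tcf4 Lin-) together with double-positive cells (Tcf4 DP). Both pools are in 1 matrix with no map from cells to pools, so all cells were treated as 1 sample without replicates. Cre is driven by the Tcf4 promoter, and the study describes animals with this allele as heterozygous for Tcf4, so every mouse here shares that state. Animals were pooled, and human cells had been added before the droplets were made. The Tcf4 of the study is Tcf7l2 in the matrix, and its Tcf3 is Tcf7l1.

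KLF proteins bind GC-rich and CACCC-like DNA through zinc fingers, and members of the family either activate or repress their targets. In the gut, KLF5 is known from dividing crypt cells and KLF4 from cells that leave the cycle and differentiate. In lymphocytes, KLF2 is known for holding T cells in a resting state and for the genes that let them leave tissues, and some members, KLF6 among them, are induced early after a stimulus.

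The matrix holds 1117 barcodes with 1023641 UMIs, and the authors' table assigns 516 of them. The comparisons used 515 cells in 6 groups that share no cell. These are 32 stem cells (69046 UMIs, median 995.5 per cell), 32 secretory precursors (128664 UMIs, median 1820.5) and 42 absorptive precursors (151780 UMIs, median 1939.5). On the other side are 187 nIELs (240024 UMIs, median 1148), 175 iIELs (185158 UMIs, median 950.0) and 47 B cells (76713 UMIs, median 1503). Together, the 106 epithelial cells had a median of 1606.5 UMIs and the 409 lymphocytes a median of 1067 UMIs.

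The lists of the authors overlap. Of the epithelial subcluster cells, 14 are also listed as IELs when all cells are clustered (3 nIEL and 11 iIEL), and here they count as epithelial. Of these, 4 had more UMIs than any other epithelial cell, up to 23205. The 14 cells held 61 Klf5, 47 Klf4, 23 Klf6, 20 Klf3, 2 Klf10, 1 Klf13 and no Klf2 UMIs. Barcodes carry the suffix X1 or X2, which could not be tied to a pool or a sort, and no barcode is in both sets. Set X2 holds 15 of 32 stem cells, but 4 of 32 secretory precursors, 8 of 42 absorptive precursors, 17 nIELs, 13 iIELs and 5 B cells. The sets gave different values for some of the genes.

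The cell names were set beside marker lists. The authors named the clusters by expression of known markers, some of them in these lists, so this is no independent check. All 8 epithelial markers were at least 2 times higher in the epithelial cells than in the lymphocytes, with Pigr, Lgals4, Epcam and Krt19 most abundant. The 7 T cell and IEL markers summed to 8524 UMIs per 1000000 (CPM) in nIELs and 7820.4 CPM in iIELs, and to 2294 CPM in the B cell cluster. The 5 B cell markers summed to 14522 CPM in the B cell cluster and to 37.5 and 32.4 CPM in nIELs and iIELs.

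Within the epithelium, 7 goblet and secretory markers summed to 65504 CPM in secretory precursors, 19378 CPM in stem cells and 8150.0 CPM in absorptive precursors. Of the stem cells, 1 held 23205 of the 69046 UMIs of the group. Clca1 (297 UMIs) was in 6.25% of stem cells and Spink4 (348 UMIs) in 40.6%. The 8 absorptive markers summed to 4724 CPM in absorptive precursors, against 1101 and 1111 CPM in stem cells and secretory precursors, although Aqp8 had no UMI. Of markers for other cells, 3 fibroblast genes with a row had 2 UMIs in all groups together, with Col1a1 at 0. Of the 4 endothelial genes, Pecam1 and Cdh5 had a row, and they summed to between 0 and 27.0 CPM outside the B cell cluster and to 130.4 CPM within it. The 4 macrophage markers summed to 873 CPM in the B cell cluster and 113 CPM in iIELs. Lyz2 is the most abundant of them, and 3 of the 47 B cell cluster cells held a UMI of it.

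The level of a gene is its UMIs in a whole cell group per 1000000 UMIs of that group (CPM), and its 95% interval is exact Poisson. Folds have exact binomial 95% intervals on the UMIs, and shares of cells have exact Clopper-Pearson 95% intervals. All of them cover counting error only. Where no UMI was seen, 3 were allowed for.

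**Figure D1:**
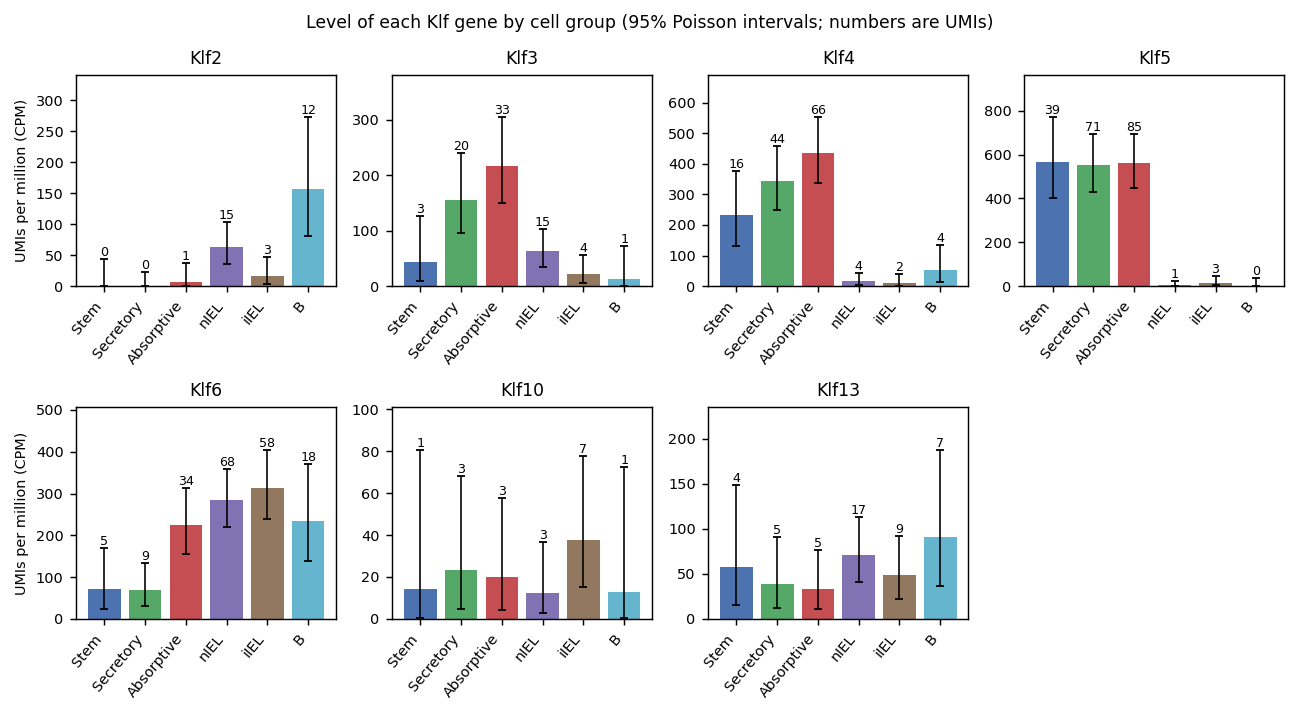
UMIs per 1000000 (CPM, vertical axis) of each gene in the 6 cell groups (horizontal axis), with exact Poisson 95% intervals as whiskers and UMIs as numbers. Klf5 is even across the 3 epithelial subclusters (552 to 565 CPM). Klf4 is higher in each epithelial than in each lymphocyte group, though its step from B cells to stem cells rests on barcode set X2. Klf3 does not differ between stem cells (43.4 CPM) and nIELs (62.5 CPM) beyond counting error. Klf2 is highest in B cells (156 CPM), and Klf6 is present in every group.

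The family was first compared between epithelium and lymphocytes, since its members have known roles on both sides. Klf5, Klf4 and Klf3 were higher in the epithelial subclusters, and Klf2 and Klf6 were higher in the lymphocytes. Klf13 and Klf10 did not differ beyond counting error. Of the 6 members with at least 20 UMIs, 3 were at least 2 times higher in epithelium, where 23.6% of the 6172 genes with that many UMIs were. A further 2 of the 6 were at least 2 times lower, against 25.0% of these genes, though Klf6 was past 2 times neither in barcode set X1 nor when CPM was averaged over cells.

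Klf5 encodes an activator that promotes division in the crypt. It lies on the plus strand of GRCm38 at chr14:99298691-99315036 in GENCODE M21. Its level was 565 CPM in the stem cells (402 to 772, 39 UMIs), 552 CPM in the secretory precursors (431 to 696, 71 UMIs) and 560.0 CPM in the absorptive precursors (447 to 692, 85 UMIs). Among lymphocytes it was 4.17 CPM in nIELs (1 UMI), 16.2 CPM in iIELs (3 UMIs) and 0 in B cells, which allows up to 39.1 CPM. The 3 epithelial levels do not differ from each other beyond counting error, nor do the 3 lymphocyte levels, and the step lies between these groups.

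Over all cells, Klf5 was at 558 CPM in epithelium and 7.97 CPM in lymphocytes, a 70.0-fold difference (26.9 to 260) that was 42.3-fold as a mean of each cell's own CPM. A larger fold was found for 226 of the 6172 genes. At least 1 Klf5 UMI was in 67 of 106 epithelial cells, or 63.2% (53.3% to 72.4%), and in 3 of 409 lymphocytes, or 0.733% (0.152% to 2.13%). With every cell thinned to 700 UMIs, which left out 13 epithelial cells and 70 lymphocytes, the shares were 34.4% and 0.457%. Of the 3 lymphocytes with Klf5, 2 held a UMI of an epithelial marker, as did 12.2% of all lymphocytes. Where the Klf5 RNA of these cells came from was not tested.

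Klf5 was spread over many cells, as 32 epithelial cells held 1 UMI of it, 11 held 2 and 24 held 3 or more. The share of cells with a UMI was 56.2% in the stem cells, 71.9% in the secretory precursors and 61.9% in the absorptive precursors. After thinning it was 37.4%, 36.2% and 30.9%, so the higher share in secretory precursors is not seen at equal depth. The level was also close in the barcode sets, at 584 and 554 CPM in stem cells, 555 and 539 CPM in secretory precursors, and 570.0 and 510.4 CPM in absorptive precursors for X1 and X2. Of the stem cells, 1 in set X2 with 23205 UMIs held 15 of the 39 Klf5 UMIs, and of the 24 in that set. Without it the stem cell level was 524 CPM.

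Klf4 encodes a factor that restrains the cell cycle and that goblet cells need to mature. It lies on the minus strand at chr4:55527143-55532466. Its level was 232 CPM in the stem cells (132 to 376, 16 UMIs), 342 CPM in the secretory precursors (248 to 459, 44 UMIs) and 435 CPM in the absorptive precursors (336 to 553, 66 UMIs). It was 16.7 CPM in nIELs (4 UMIs), 10.8 CPM in iIELs (2 UMIs) and 52.1 CPM in B cells (4 UMIs). Neighbours in the order of epithelial levels did not differ beyond counting error, but absorptive precursors were 1.88-fold above stem cells (1.07 to 3.47), an order that barcode set X2 turned around. The lowest epithelial level, in stem cells, was 4.44-fold above that in B cells (1.43 to 18.3). This step rests on set X2, since X1 alone had 77.9 CPM in stem cells (2 UMIs) and 56.4 CPM in B cells (4 UMIs).

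Klf4 was at 361 CPM in epithelium and 19.9 CPM in lymphocytes, an 18.1-fold difference (9.52 to 38.7) that 380 of the 6172 genes exceeded. A Klf4 UMI was in 43 epithelial cells, or 40.6% (31.1% to 50.5%), and in 8 lymphocytes, or 1.96% (0.848% to 3.82%). After thinning these shares were 20.5% and 1.57%. None of the 8 lymphocytes held a UMI of the 8 epithelial markers. A single absorptive precursor of 23171 UMIs held 23 of the 66 Klf4 UMIs of its subcluster, whose level without that cell was 334 CPM.

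Klf3 encodes a repressor that recruits CtBP proteins. It lies on the plus strand at chr5:64803388-64832901, where the annotated genes Gm20033 (opposite strand, 0 UMIs) and C230096K16Rik (same strand, 6 UMIs) overlap it. Strand use in the counting is not given in the sources used here, so reads from shared bases cannot be told apart. The Klf3 level was 43.4 CPM in the stem cells (8.96 to 127, 3 UMIs), 155 CPM in the secretory precursors (94.9 to 240.1, 20 UMIs) and 217 CPM in the absorptive precursors (149.7 to 305, 33 UMIs). In lymphocytes it was 62.5 CPM in nIELs (35.0 to 103, 15 UMIs), 21.6 CPM in iIELs (4 UMIs) and 13.0 CPM in B cells (1 UMI).

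Among these neighbours, only secretory precursors and nIELs differed beyond counting error, by 2.49-fold (1.21 to 5.22), and by 1.91-fold (0.838 to 4.31) when the secretory cell with most Klf3 UMIs was left out. Over all cells, Klf3 was at 160.2 CPM in epithelium and 39.8 CPM in lymphocytes, a 4.02-fold difference (2.38 to 7.07) that 772 of the 6172 genes exceeded. Klf3 was in 23.6% of epithelial cells (15.9% to 32.8%) and 4.40% of lymphocytes (2.63% to 6.87%), and after thinning in 7.84% and 2.91%. The Klf3 fold was 4.50 in barcode set X1 and 2.23 in set X2.

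Promoters are shown for Klf4, Klf3 and Klf2, since these members moved in opposite directions between epithelium and lymphocytes and KLF proteins themselves bind such letters. Of the 7 members, 5 matched the promoter table from RefSeq on GRCm38.p6. Klf5 and Klf10 have no entry. Each sequence is read on the gene's own strand, and capitals mark GGGCGG (the GC box) and CACCC, or their reverse complements CCGCCC and GGGTG. The stretches are chr4:55532476-55532725 (minus strand), chr5:64803271-64803387 (plus strand) and chr8:72318812-72319032 (plus strand), the last 2 ending at the annotated gene start.
Klf4: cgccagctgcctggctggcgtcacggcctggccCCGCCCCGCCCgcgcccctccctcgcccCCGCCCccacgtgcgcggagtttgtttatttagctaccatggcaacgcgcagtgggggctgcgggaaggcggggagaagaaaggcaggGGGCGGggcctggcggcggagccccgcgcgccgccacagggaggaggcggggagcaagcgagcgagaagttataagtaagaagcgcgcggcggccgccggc
Klf3: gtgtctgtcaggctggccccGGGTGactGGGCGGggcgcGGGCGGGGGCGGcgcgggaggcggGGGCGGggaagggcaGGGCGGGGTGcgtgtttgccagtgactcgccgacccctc
Klf2: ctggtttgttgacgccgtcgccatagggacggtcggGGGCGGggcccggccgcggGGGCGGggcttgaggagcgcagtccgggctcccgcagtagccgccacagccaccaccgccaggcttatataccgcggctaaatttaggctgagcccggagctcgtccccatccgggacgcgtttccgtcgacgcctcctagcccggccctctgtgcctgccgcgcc

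The Klf4 stretch of 250 bases holds 4 matches to GGGCGG and none to CACCC. The Klf3 stretch of 117 bases holds 5 and 2 matches, and in 1 place a GGGCGG and a GGGTG share a base. The Klf2 stretch of 221 bases holds 2 and 0 matches. In the 250 bases before the start in the promoter table, which for Klf3, Klf2 and Klf6 reach past the annotated gene start into the gene, Klf3 has 6 matches to GGGCGG and 5 to CACCC, Klf2 has 2 and 1, Klf6 has 1 and 0, and Klf13 has 3 and 1. Of 27025 promoters of that length, 32.9% hold GGGCGG on either strand, 4.11% hold at least 4 of them, and 51.3% hold CACCC. These promoters have a median of 52.0% G or C, against 74.0% for Klf4, 78.4% for Klf3 and 71.2% for Klf2. The shares were not adjusted for this content. A match is a description and does not show binding.

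**Figure D2:**
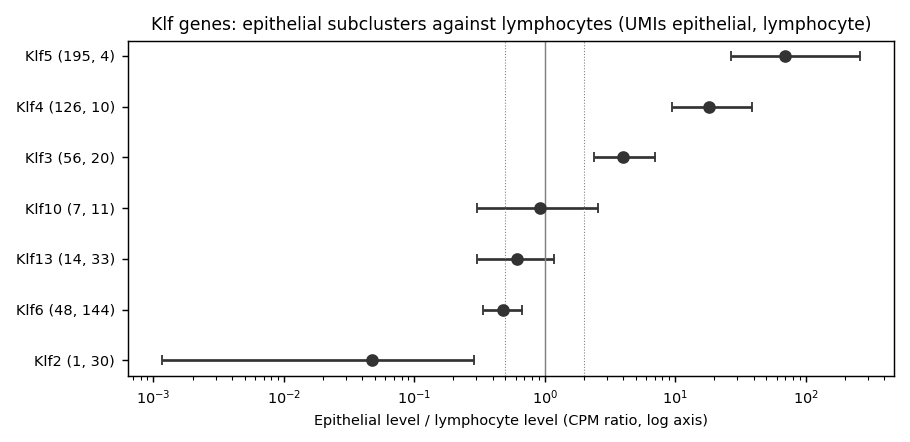
Ratio of the epithelial to the lymphocyte level (CPM ratio, logarithmic horizontal axis) for each of the 7 genes (vertical axis), with exact binomial 95% intervals, UMIs of both sides in brackets and lines at ratios of 0.5, 1 and 2. Klf5 lies highest at 70.0, Klf2 lies lowest, and the intervals of Klf10 and Klf13 include equal levels.

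Klf2 encodes a factor that keeps naive lymphocytes at rest and drives S1pr1, whose product guides their traffic. It lies on the plus strand at chr8:72319033-72321656. Its level was 0 in stem cells and secretory precursors, which allows up to 43.4 and 23.3 CPM, and 6.59 CPM in absorptive precursors (1 UMI). It was 156 CPM in B cells (80.8 to 273, 12 UMIs), 62.5 CPM in nIELs (35.0 to 103, 15 UMIs) and 16.2 CPM in iIELs (3.34 to 47.4, 3 UMIs). B cells were above nIELs by 2.503-fold (1.07 to 5.73) and nIELs above iIELs by 3.86-fold (1.09 to 20.8), while iIELs and the epithelial groups did not differ beyond counting error. Both steps hang on single cells, as without the cell holding most Klf2 UMIs in the higher group they were 1.70-fold (0.625 to 4.28) and 2.85-fold (0.752 to 15.9), within counting error.

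With 1 UMI in epithelium and 30 in lymphocytes, Klf2 was at 2.86 and 59.8 CPM, which is 20.9-fold higher in lymphocytes (3.47 to 852). A Klf2 UMI was in 1 of 106 epithelial cells, or 0.943% (0.0239% to 5.14%), and in 19 of 409 lymphocytes, or 4.65% (2.82% to 7.16%). Within the lymphocytes it was in 17.0% of B cells (7.65% to 30.8%), 4.81% of nIELs (2.22% to 8.94%) and 1.143% of iIELs (0.139% to 4.07%). After thinning these shares were 10.5%, 2.68% and 0.845%. The order was therefore the same in levels and in shares of cells.

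Klf6 encodes an early-induced factor known as a growth suppressor, and lies on the plus strand at chr13:5861482-5870394. Its level was 72.4 CPM in the stem cells (23.5 to 169, 5 UMIs), 69.9 CPM in the secretory precursors (32.0 to 133, 9 UMIs) and 224 CPM in the absorptive precursors (155 to 313, 34 UMIs). It was 283 CPM in nIELs (220.0 to 359, 68 UMIs), 313 CPM in iIELs (238 to 405, 58 UMIs) and 235 CPM in B cells (139 to 371, 18 UMIs). Absorptive precursors and the 3 lymphocyte groups did not differ beyond counting error, and absorptive precursors lay 3.09-fold above stem cells (1.20 to 10.1), or 2.58-fold (0.964 to 8.65) when the absorptive cell with most Klf6 UMIs was left out.

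Over all cells, Klf6 was at 137 CPM in epithelium and 287 CPM in lymphocytes, which is 2.09-fold higher in lymphocytes (1.50 to 2.96). This is close to a change of 2 times, and the ratio of epithelium to lymphocytes was 0.479 in all cells, 0.547 in barcode set X1, 0.213 in set X2 and 0.532 as a mean of each cell's own CPM. A Klf6 UMI was in 25.5% of epithelial cells (17.5% to 34.9%) and 20.5% of lymphocytes (16.7% to 24.8%). After thinning these were 10.9% and 14.8%, so the order of the unthinned shares goes against that of the levels and is not read as a difference.

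Klf10 encodes a repressor induced by TGF-beta, and lies on the minus strand at chr15:38291463-38300706. With 18 UMIs in all groups it was below the minimum of 20. Its level was 14.5, 23.3 and 19.8 CPM in stem cells, secretory and absorptive precursors (1, 3 and 3 UMIs), and 12.5, 37.8 and 13.0 CPM in nIELs, iIELs and B cells (3, 7 and 1 UMIs). No difference between groups was detectable at this depth, and the ratio of epithelium to lymphocytes was 0.914 (0.300 to 2.58).

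Klf13 encodes a factor known to drive late Ccl5 expression in T cells, and lies on the minus strand at chr7:63886351-63938915. Its level was 57.9 CPM in the stem cells (4 UMIs), 38.9 CPM in the secretory precursors (5 UMIs) and 32.9 CPM in the absorptive precursors (5 UMIs). In lymphocytes it was 70.8 CPM in nIELs (41.3 to 113, 17 UMIs), 48.6 CPM in iIELs (22.2 to 92.3, 9 UMIs) and 91.2 CPM in B cells (36.7 to 188, 7 UMIs). No neighbours in this order differed beyond counting error, and the ratio of epithelium to lymphocytes was 0.609 (0.301 to 1.17). Of the cells, 4.72% of epithelial cells and 2.44% of lymphocytes held a Klf10 UMI, and 11.3% and 7.09% a Klf13 UMI. At 700 UMIs per cell the order turned, to 1.43% and 1.62% for Klf10 and 2.37% and 3.88% for Klf13.

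The members were next compared among the 3 epithelial subclusters, which the study sets in a path from stem cells to secretory or absorptive precursors. It describes Klf5 as early and Klf4 as late in pseudotime, an order of single Pigr+ cells without T cell markers. The levels here are sums over subclusters, which is another measure and set of cells. Only Klf3, Klf4, Klf5 and Klf6 reached 20 UMIs in epithelium. Klf6 was higher in absorptive precursors, Klf3 was lower in stem cells, the summed level of Klf5 was even, and the order of Klf4 changed with the barcode set.

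Klf6 was 3.16-fold higher in absorptive precursors than in the other epithelial cells (1.65 to 6.38), and was the only 1 of the 4 members past 2 times there, against 12.9% of 3013 genes. Its fold was 3.92 in barcode set X1, and 2.64 without the cell that held 10 of the 34 UMIs. In set X2 the fold was 1.72, from 4 UMIs in absorptive precursors, 4 in stem cells and 2 in secretory precursors. The share of cells with Klf6 was 40.5% in absorptive precursors (25.6% to 56.7%), 21.9% in secretory precursors (9.28% to 40.0%) and 9.38% in stem cells (1.98% to 25.0%). Thinned to 700 UMIs, these were 18.0%, 7.41% and 4.27%. The lymphocytes, with Klf6 in 20.5% of cells, are no cell type without this gene.

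None of the 4 members was at least 2 times higher in stem cells, where 13.1% of the 3013 genes were, or in secretory precursors, where 9.16% were. In stem cells, Klf3 was 4.35-fold lower than in the other epithelial cells (1.41 to 21.8), from 3 UMIs, and Klf6 was 2.12-fold lower there (0.840 to 6.85 for the fold decrease), which makes 2 of 4 members at least 2 times lower against 16.6% of the 3013 genes. The barcode sets gave Klf6 ratios of 0.245 (X1) and 0.734 (X2) for stem cells, where all cells gave 0.472. In secretory precursors Klf6 was 2.52-fold lower (1.203 to 5.93), 1 of 4 members against 18.0% of genes. That ratio of 0.396 was 0.323 in set X1 but not past 2 times in set X2 (0.772), as a mean over cells (0.590) or without the cells with an IEL label (0.515). Klf3 was 1.87-fold higher in absorptive precursors (1.06 to 3.33). That fold ran from 1.36 as a mean of each cell's own CPM to 2.06 without the cells with an IEL label. Its ratio in secretory precursors to the others was 0.953 (0.523 to 1.69), but 2.57 in set X2 and 1.57 as a mean of each cell's own CPM. By that mean, Klf3 was higher in secretory (143 CPM) than in absorptive precursors (127 CPM). A Klf3 UMI was in 6.25% of the stem cells, 34.4% of the secretory and 28.6% of the absorptive precursors, and after thinning in 3.88%, 10.8% and 8.26%, against 2.91% in lymphocytes.

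Klf4 in stem cells was 1.69-fold lower than in the other epithelial cells, with an interval that reaches no difference (0.997 to 3.06). In absorptive precursors it was 1.43-fold higher (0.995 to 2.07), and 1.10-fold once the cell holding most Klf4 UMIs was left out. These values came from barcode sets that differ. In set X1, Klf4 was at 77.9 CPM in the stem cells (2 UMIs), 310.2 CPM in the secretory precursors (33 UMIs) and 491 CPM in the absorptive precursors (62 UMIs). In set X2 it was at 323 CPM (14 UMIs), 494 CPM (11 UMIs) and 157 CPM (4 UMIs), so absorptive precursors were highest in X1 and lowest in X2. What the sets stand for is not given, and its part in this difference was not tested. A Klf4 UMI was in 28.1% of the stem cells, 46.9% of the secretory and 45.2% of the absorptive precursors, and after thinning in 13.5%, 20.2% and 25.4%.

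Klf5 had a ratio to the other epithelial cells of 1.02 in the stem cells (0.696 to 1.45), 0.983 in the secretory precursors (0.723 to 1.33) and 1.01 in the absorptive precursors (0.749 to 1.35). Each interval lies inside a change of 2 times in either direction. As a mean of each cell's own CPM, Klf5 was at 492, 648 and 464 CPM in stem cells, secretory and absorptive precursors. In stem cells, the subcluster that the study marks by Klf5, the barcode sets gave ratios of 1.04 (X1) and 1.06 (X2).

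**Figure D3:**
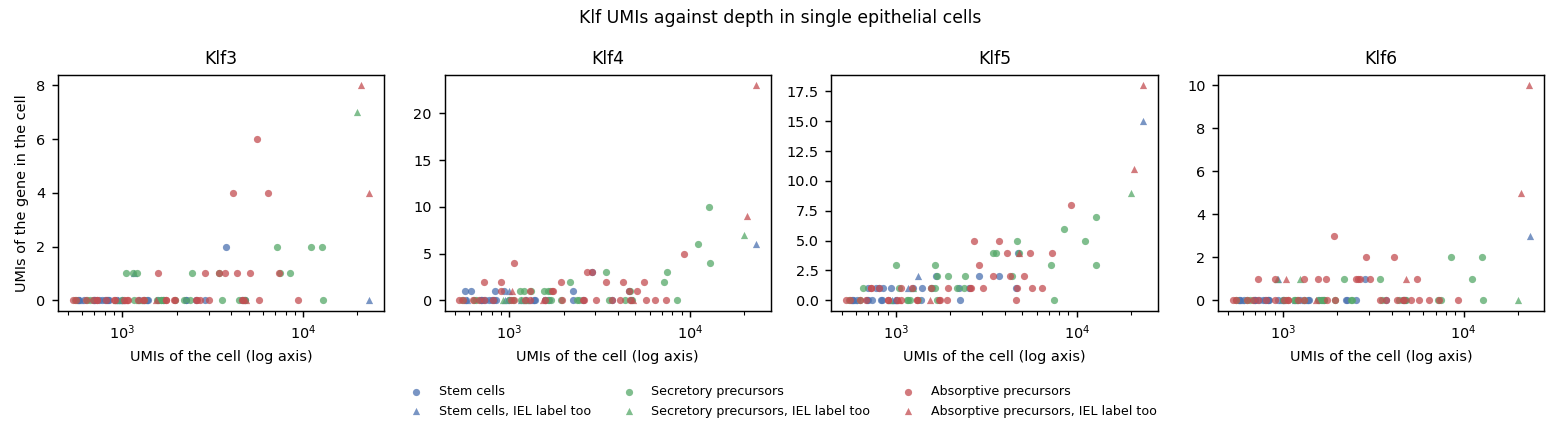
UMIs of Klf3, Klf4, Klf5 and Klf6 in each epithelial cell (vertical axis) against all UMIs of that cell (logarithmic horizontal axis), with colours for subclusters and triangles for the 14 cells that also carry an IEL label. Deeper cells hold more Klf5 UMIs, and 1 absorptive precursor stands out with 23 Klf4 UMIs.

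The study plots Klf4 and Klf5 with the proliferation marker Mki67, and places Klf5 but not Klf4 together with it. In the epithelial cells, cells with and without a Mki67 UMI held both Klf5 and Klf4. The share with Klf5 was higher among cells with Mki67, but the difference was not tested. Mki67 itself was at 550.4 CPM in the stem cells, 101 CPM in the secretory precursors and 158 CPM in the absorptive precursors. Cells with Mki67 were also deeper, with a median of 2868 UMIs against 1572.

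Of the 23 cells with a Mki67 UMI, 19 also held Klf5, or 82.6% (61.2% to 95.05%), against 48 of the 83 others, or 57.8% (46.5% to 68.6%). With cells thinned to 700 UMIs these shares were 48.2% and 32.3%, from a mean of 12.2 thinned cells with Mki67. Klf4 was in 8 of the 23 cells with Mki67, or 34.8% (16.4% to 57.3%), and in 35 of the 83 others, or 42.2% (31.4% to 53.5%). After thinning these were 11.04% and 21.9%, and the intervals before thinning overlap in part for Klf5 and widely for Klf4. For comparison, lymphocytes held Klf5 in 0.733% and Klf4 in 1.96% of cells at a median of 1067 UMIs.

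By subcluster, Klf4 was in 6 of 13 stem cells with Mki67 and in 3 of 19 without, with median depths of 1370.0 and 993 UMIs and thinned shares of 16.1% and 12.4%. It was in 1 of 7 absorptive precursors with Mki67 and in 18 of 35 without. The 7 absorptive cells were the deeper ones, with medians of 4120.0 and 1735 UMIs, and the thinned shares were 3.12% and 27.5% from a mean of 3.21 cells with Mki67. All 7 of them held Klf5, against 19 of 35, with thinned shares of 40.8% and 30.0%. Klf4 and Mki67 UMIs were thus found in the same cell 8 times, of which 6 were in stem cells.

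**Figure D4:**
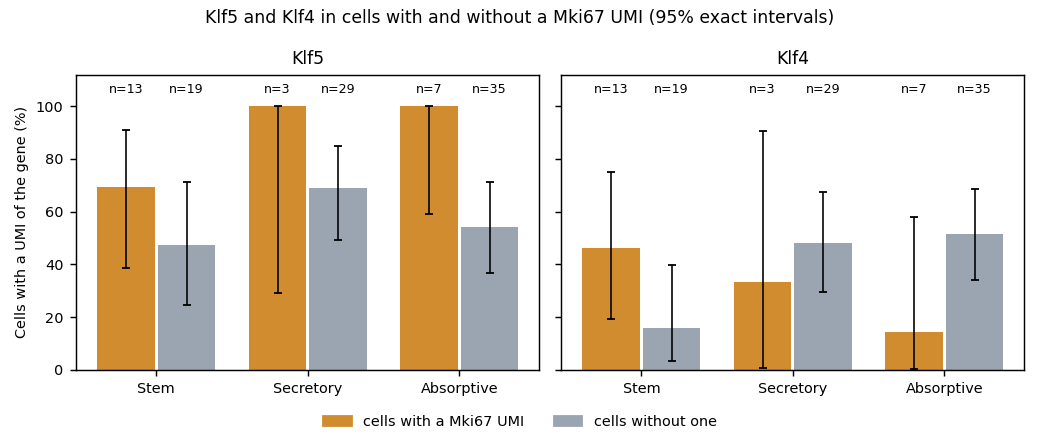
Share of cells with a Klf5 or Klf4 UMI (percent, vertical axis) among cells with and without a Mki67 UMI in each epithelial subcluster (horizontal axis), with exact Clopper-Pearson 95% intervals and n cells. In absorptive precursors Klf5 is in 7 of 7 and Klf4 in 1 of 7 cells with Mki67, and in stem cells Klf4 is in 6 of 13.

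The study likens Klf4 to Tcf7l2 and Klf5 to Tcf7l1 along its path. Klf4 was in 9 of 19 cells with a Tcf7l2 UMI (47.4%) and in 34 of 87 without (39.1%), and Klf5 in 17 (89.5%) and 50 (57.5%) of them. Klf5 was in 22 of 27 cells with a Tcf7l1 UMI (81.5%) and in 45 of 79 without (57.0%), and Klf4 in 15 (55.6%) and 28 (35.4%). Cells with Tcf7l2 had a median of 4120.0 UMIs against 1326, and those with Tcf7l1 4662 against 1305. After thinning, Klf5 was in 31.3% of cells with and 34.7% without Tcf7l1, and Klf4 in 25.0% with and 20.2% without Tcf7l2, and Klf5 in 58.2% with and 32.8% without Tcf7l2. A mean of 5.72 thinned cells held Tcf7l2 and 7.80 held Tcf7l1, too few to tell apart depth and a pairing of these genes.

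Between members, 26 of the 67 cells with Klf5 held Klf4 (38.8%), as did 17 of the 39 without (43.6%). Klf3 was in 22 of the 67 cells with Klf5 and 3 of the 39 without, whose median depths were 2591 and 993 UMIs. After thinning, the Klf3 shares were 8.29% and 7.60% and the Klf4 shares 17.6% and 21.9%. By subcluster, the thinned Klf4 shares were 12.1% and 24.8% in secretory precursors, 11.2% and 14.8% in stem cells, and 27.9% and 24.4% in absorptive precursors.

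Among the lymphocyte groups, the members with at least 20 UMIs were Klf2, Klf3, Klf6 and Klf13. Klf2 was higher in B cells and lower in iIELs, and Klf3 was higher in nIELs. Klf6 and Klf13 did not differ between the groups beyond counting error.

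Klf2 was 3.70-fold higher in B cells than in the IELs (1.62 to 8.11), 1 of 4 members past 2 times against 7.0% of 3844 genes. The fold was 2.51 once the cell holding most Klf2 UMIs was left out. That value rests on 8 UMIs in B cells against 18 in IELs, and no interval was computed for it. In sets X1 and X2 the fold was 3.60 and 5.34, and as a mean of each cell's own CPM it was 6.04. In iIELs Klf2 was 5.26-fold lower than in the other lymphocytes (1.62 to 27.1). With Klf3 this made 2 of 4 members at least 2 times lower there, against 6.95% of genes, and in B cells Klf3 was the 1 of 4, against 18.8%, both with intervals for Klf3 that include no difference. No member was past 2 times higher in iIELs, where 5.72% of these genes were.

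T cell and macrophage markers were present in the B cell cluster, so the cells that held Klf2 were looked at after its level was known. All 8 held a UMI of a B cell marker, like all 47 cells, and 6 held Ms4a1, which 26 of the 47 cells of the cluster had. A T cell marker was in 7 of the 8, against 21 of 47. None of the 8 held Lyz2, and without the 3 cells with Lyz2 the Klf2 fold was 4.03. Whether the T cell RNA moves with the Klf2 level was not tested.

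Klf3 was 3.27-fold higher in nIELs than in the other lymphocytes (1.13 to 11.5), 1 of 4 members past 2 times against 5.72% of 3844 genes. With the clusters as listed, where 11 epithelial cells are iIELs and 3 are nIELs, this ratio was 0.892. The ratio of Klf6 to the other lymphocytes was 0.976 in nIELs (0.693 to 1.37), 1.15 in iIELs (0.812 to 1.63) and 0.792 in B cells (0.455 to 1.30). That of Klf13 was 1.16, 0.641 and 1.49, and in set X2 4.70 in iIELs, from 2 UMIs. In set X2 Klf6 reached 907 CPM in iIELs, from 10 UMIs in 13 cells.

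S1pr1, Itgb7 and S1pr4 are among the genes known as KLF2 targets in lymphocyte traffic, and Ccr7, another of them, had no row. S1pr1 was at 41.7 CPM in nIELs, 10.8 CPM in iIELs and 117 CPM in B cells, in the order of the groups that Klf2 had. Itgb7 was at 221, 443 and 130.4 CPM and S1pr4 at 33.3, 70.2 and 0 CPM in these groups, an order unlike that of Klf2.

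No epithelial cell held S1pr1 or S1pr4, and the subclusters held 1 UMI of Itgb7. Of the 3 targets with at least 20 UMIs, all were at least 2 times lower in epithelium, where 25.0% of the 6172 genes were. S1pr1 and S1pr4 had no UMI there and can only be called at least 3.63-fold lower, the limit of the exact interval. Of the 19 lymphocytes with Klf2, 4 held S1pr1, against 12 of all 409. Those 19 cells had a median of 2020.0 UMIs, and these counts were made after the Klf2 levels were seen.

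Among known targets of the other members, Ccl5, a chemokine gene that KLF13 activates, was at 7841 CPM in nIELs, 22235 CPM in iIELs and 3624 CPM in B cells. Klf13 did not differ between these groups. Ccnd1, a cell cycle gene that KLF5 activates, was at 290, 210 and 184 CPM in stem cells, secretory and absorptive precursors, 0 in both IEL groups and 261 CPM in B cells. Cdkn1a, a cell cycle inhibitor that KLF4 and KLF6 activate, was at 0, 140 and 72.5 CPM in the epithelial groups. Of the 4 targets with at least 20 UMIs, Cdkn1a and Ccnd1 were at least 2 times higher in epithelium and Smad7 and Ccl5 lower, with a median log2 fold of 0.50, against 23.6% and 25.0% of all genes and a median of -0.08.

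Early-response genes were set beside the members because Klf4 and Klf6 belong to that response in many cells. The list of 14 genes summed to 1637 CPM in the stem cells, 2316 CPM in the secretory precursors and 698 CPM in the absorptive precursors. Its most abundant genes are Jun, Jund, Junb and Fos. Jun was at 594, 521 and 98.8 CPM and Fos at 217, 389 and 46.1 CPM, but Jund at 232, 349.7 and 316 CPM was not lowest in absorptive precursors. Klf6 was instead highest in absorptive precursors, and so was Klf4 with both barcode sets counted, but not in set X2 alone and not beyond counting error over secretory precursors.

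Of 7 early-response genes with at least 20 UMIs in epithelium, 5 were at least 2 times higher in secretory precursors (median log2 fold 1.54), against 9.16% of all 3013 genes (median -0.26). In absorptive precursors 6 of the 7 were at least 2 times lower (median -2.62), against 12.6% of all genes (median 0.11). Single cells weigh on these sums. A secretory precursor held 145 of the 298 UMIs of its group and a stem cell 41 of 113, and the levels without them were 1301 CPM in secretory precursors and 1078 CPM in stem cells. Without that secretory cell, 3 of 6 genes were at least 2 times higher in secretory precursors and 4 of 6 lower in absorptive precursors.

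By barcode set, the list summed to 3075, 1100 and 633 CPM in stem cells, secretory and absorptive precursors in X1, and to 784, 8124 and 1021 CPM in X2. Absorptive precursors were thus lowest in X1 and between the others in X2. The Klf6 level was highest in absorptive precursors in X1, at 238 CPM (30 UMIs). In X2 it was 157 CPM there (4 UMIs), 92.3 CPM in stem cells (4 UMIs) and 89.8 CPM in secretory precursors (2 UMIs). These X2 counts are too few to rank the subclusters. The sums by set and without single cells were chosen after the values were seen.

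**Figure D5:**
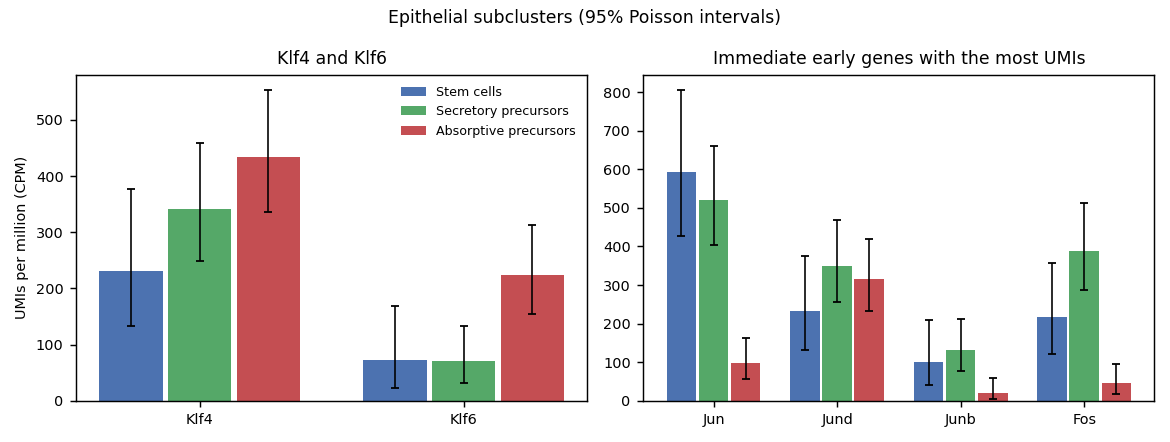
Levels (CPM, vertical axis) of Klf4 and Klf6 and of the 4 most abundant early-response genes in the 3 epithelial subclusters, with exact Poisson 95% intervals. Klf6 is highest in absorptive precursors, where Jun, Junb and Fos but not Jund (316 CPM) are lowest, while Klf4 does not differ there from secretory precursors beyond counting error and is lowest there in barcode set X2, and 1 secretory precursor holds 145 of the 298 early-response UMIs of its group.

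Of the 10 cell cycle genes, summed levels were 1723 CPM in the stem cells, 342 CPM in the secretory precursors and 494 CPM in the absorptive precursors. Top2a was at 666, 155 and 152 CPM. Klf5, which promotes division, did not follow this order, since its level was even. Of the 2 cell cycle genes with at least 20 UMIs in epithelium, Mki67 and Top2a, both were at least 2 times higher in stem cells (median log2 fold 2.09), against 13.1% of all genes (median -0.04). Between epithelium and lymphocytes, 2 of 5 were higher and 2 lower, with a median of 0.05, against 23.6%, 25.0% and -0.08 for all genes. Pcna and Tyms complete the 4 most abundant genes of this list.

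Of 19 other KLF and SP family genes, 10 had a row. The most abundant were Sp4, Sp1, Klf9 and Sp3. Klf9 was at 116, 101 and 79.1 CPM in stem cells, secretory and absorptive precursors and at 12.5, 32.4 and 13.0 CPM in nIELs, iIELs and B cells, a 4.74-fold higher level in epithelium (2.28 to 10.8). Sp4 had no UMI in epithelium and 45 in lymphocytes, at least 8.15-fold higher there by the limit of the exact interval. Of 5 with at least 20 UMIs, 1 was at least 2 times higher and 2 lower in epithelium, with a median log2 fold of -0.21, beside 23.6%, 25.0% and -0.08 over all genes.

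Partners of the KLF proteins were present on both sides. Of 9 corepressors and coactivators with at least 20 UMIs, 3 were at least 2 times higher in epithelium (Ctbp1, Ctbp2 and Hdac3) and 3 lower (Sin3a, Sin3b and Hdac1), with a median log2 fold of 0.69. Over all 6172 genes these shares were 23.6% and 25.0% and the median -0.08, so such counts do not set the list apart. Ctbp2, a corepressor that KLF3 recruits, was at 101, 124 and 119 CPM in stem cells, secretory and absorptive precursors, and at 8.33, 16.2 and 0 CPM in nIELs, iIELs and B cells. It was 11.8-fold higher in epithelium (4.66 to 38.2), the side on which Klf3 was higher too. The most abundant of this list were Hdac1, Sin3b, Ctbp1 and Crebbp.

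Of 4 ubiquitin ligases that act on KLF proteins and had at least 20 UMIs, none was at least 2 times higher in epithelium and 2 were lower (Itch and Smurf2), with a median of -0.65, against 23.6% and 25.0% of all genes and a median of -0.08. Wwp1, which marks KLF2 and KLF5 for breakdown, was at 29.0, 15.5 and 46.1 CPM in the epithelial groups and at 49.995, 21.6 and 39.1 CPM in nIELs, iIELs and B cells. Fbxw7 was the other of the 4 most abundant.

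For each member with at least 20 UMIs, the genes with the most similar levels over the 6 groups were found by Pearson correlation of log2(CPM + 10) among genes with at least 50 UMIs. The 6 points share 1 matrix and differ in depth, so the values are descriptions. For Klf5 these were Pigr (r = 0.998), by which the authors selected epithelial cells for pseudotime, Cldn7 and Prss32, and 150 genes had an r of at least 0.95. For Klf4 they were Suclg2 (0.995), App and Atpif1, and for Klf3 Utp11l (0.965), Pdlim1 and Tuba4a.

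For Klf2 the most similar were Ighm (0.998), Rabgap1l and Pafah1b1, and Ighm was at 1017 CPM in B cells, 262 CPM in nIELs and 37.8 CPM in iIELs. Of the 9 nIELs with Klf2, 3 held an Ighm UMI, as did 43 of all 187 nIELs. For Klf6 they were Gm19287 (0.992), Dnaja1 and Ctsa, and for Klf13 Nsa2 (0.987), Ccm2 and Bcap29. The other settings tried were a larger pseudocount, rank correlation and a minimum of 20 UMIs. All 3 genes for Klf13 were named again under each, 1 of 3 for Klf2 under each, and for Klf3 1, 0 and 0 of 3, so most of these names depend on the setting.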

How the data were processed

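The deposited UMI counts, whole numbers that the authors obtained per gene symbol and barcode with the Drop-seq pipeline, were used unchanged. Reads were aligned to hg19 and mm10 with STAR 2.5.0 and handled with Picard 1.137 in the submitters' notes. For pseudotime of the epithelial Pigr+ cells the paper kept cells that express Pigr and lack T cell markers. The gene annotation, the settings for joining UMIs and the depth filter are not given in the sources used here. Of 19294 symbols, 18604 are in GENCODE M21, which gave the positions. Cells were joined by barcode to the authors' table (504 to 23205 UMIs per cell), and 1 epithelial Pigr+ cell of no subcluster was left out. Doublets were not called. The 601 barcodes of no cluster enter no comparison.

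With 1 sample, no p-value was computed. The rule for named genes took the 7 members, up to 4 of the most abundant genes of each list and the 3 most similar genes for each member. Ctbp2, Hdac3, Sin3a and Ighm were singled out after their values were seen. The members and lists were chosen with earlier results of these data known. Background shares used genes with at least 20 UMIs in the cells compared, and shares of cells were also taken after drawing 700 UMIs from each cell, 100 times.

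Alternatives were CPM taken per cell and averaged, totals without 338 mitochondrial and ribosomal protein genes, clusters as listed, each barcode set alone, leaving out the top cell or the 14 cells with an IEL label, and joining barcodes that differ at 1 base (494 cells in place of 515). Joining for shares of cells, leaving out cells with Lyz2 or, for neighbours in order, the top cell, and looking at which cells held a member's UMIs were chosen after seeing the data. Folds were tested on simulated data. Python 3.11.15, numpy 2.4.6, scipy 1.17.1, pandas 2.3.3 and matplotlib 3.10.9 were used.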

Additional observations from a re-analysis of the deposited data

Results flagged for a closer look

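The 601 barcodes that the authors assigned to no cluster had a median of 212 UMIs and 36.8% mitochondrial UMIs, and enter no comparison above. For 6 of the 7 genes their summed level was above 17.5 CPM, the most that a count of 0 allows here, which any gene with over 3 UMIs passes and so says no more than that UMIs were present. Klf4 was at 209.6 CPM there (146.8 to 290.2, 36 UMIs in 21 barcodes), between its levels in epithelium and lymphocytes. A barcode of 2274 UMIs held 9 of these Klf4 UMIs. Klf6 was at 215 CPM (152 to 297, 37 UMIs) and Klf5 at 111 CPM (66.6 to 173, 19 UMIs). Klf13 was at 58.2 CPM (10 UMIs), Klf3 at 52.4 CPM (9 UMIs) and Klf10 at 23.3 CPM (6.35 to 59.6, 4 UMIs), an interval that includes 17.5 CPM. In the same barcodes Pigr was at 5246 CPM and Cd3g at 582 CPM, so UMIs of epithelial and T cell genes were both present. The source of the KLF UMIs was not tested.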

How the results depend on the processing

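Of 52 recomputed folds between epithelium and lymphocytes, 47 stayed within the interval of the value reported and 5 moved. With the clusters as listed, these ratios were 2.19 for Klf3, 3.37 for Klf4 and 5.05 for Klf5, as that list puts deep epithelial cells among the IELs. In barcode set X2 alone they were 2.23 for Klf3 and 0.213 for Klf6. Of 130 folds within epithelium or lymphocytes, 120 stayed, 9 moved and 1 reversed. The reversed fold had an interval that left out no difference. Some of the 9 also crossed to the other side of no difference, but their intervals had included it. In set X2 alone the ratio of Klf4 was 1.03 in stem cells, 1.89 in secretory and 0.412 in absorptive precursors, that of Klf3 in secretory precursors 2.57, and those of Klf6 and Klf13 in iIELs 2.61 and 4.70. In set X1 alone Klf4 in stem cells was 0.191. As a mean of each cell's own CPM, Klf5 in secretory precursors was 1.36. With the clusters as listed, Klf3 was 1.69 in iIELs and reversed to 0.892 in nIELs. The cause was not tested where none is named.

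Folds with no UMI on a side in set X2 gave no value there. Totals without mitochondrial and ribosomal protein genes shift each ratio of epithelium to lymphocytes by -0.14 (log2). Of 42 shares of cells, 20 moved, under thinning or a minimum of 2 UMIs. Of the 18 genes named by similarity, 9 were named again with a pseudocount of 50, 8 by Spearman correlation and 9 with a minimum of 20 UMIs. Of 8 shares of all genes past a fold, 7 moved at a fold of 3 in place of 2 (B cells 2.65%, nIELs 1.17%, absorptive precursors 4.25%) and 4 with at least 50 UMIs (stem cells 8.54%, nIELs 2.69%, iIELs 2.82%, B cells 4.04%). No paired analysis was possible because cells of both pools are in 1 matrix without a map to the pools. Counting error limits Klf10 and Klf13, with 18 and 47 UMIs, and Klf2 in epithelium, with 1.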
